A study of Mus musculus with 2 samples.

Results

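The semaphorins, plexins and neuropilins were taken by a rule on gene symbols, with earlier results of these data known. The rule found 31 genes of the 31040 in the matrix: 20 semaphorins, 9 plexins and 2 neuropilins. Their UMI counts (unique molecular identifiers, each standing for 1 captured RNA molecule) were described across classes of nuclei defined by marker genes. The nuclei came from the prefrontal cortex of wild-type male C57BL/6 mice aged 2 months, 3 mice in each of 2 groups. One group had methamphetamine (METH) at 5 mg/kg by intraperitoneal injection over 14 days, and the control group had saline by the same route. The deposited matrix holds both libraries together and separates them only by a barcode suffix, which no label or file used here ties to METH or to control. The libraries are therefore called library 1 and library 2, no comparison of METH with control was possible, and all nuclei form 1 pooled sample without a test.

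Semaphorins are guidance proteins that are secreted or held at the cell surface, and plexins are their main receptors. Most secreted class 3 semaphorins do not bind a plexin on their own and act through a neuropilin, which joins a class A plexin in the receptor complex. Membrane-bound semaphorins of classes 4 to 7 mostly bind plexins directly, class 4 chiefly B plexins and class 6 A plexins, and some can also signal back into the cell that carries them. In the brain the system is known for steering axons, placing synapses and guiding oligodendrocyte precursors, and it stays active in the adult.

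The matrix held 20766 barcodes and 66566100 UMIs, 9890 barcodes in library 1 and 10876 in library 2, and 154 barcode sequences occurred in both. After filters, 18002 nuclei remained (8003 and 9999), with a median of 2978 UMIs. The 50 nuclei needed for comparison were reached by 11 classes: 7762 excitatory, 2435 inhibitory, 1053 striatal projection and 56 cholinergic neurons, 3063 oligodendrocytes, 109 differentiating oligodendrocytes, 354 oligodendrocyte precursors, 307 astrocytes, 881 microglia, 58 perivascular macrophages and 112 fibroblasts. A class name stands for nuclei that are like that class by their markers. Striatal projection and cholinergic neurons are not cortical types, although the label of every sample is prefrontal cortex. The libraries differed in makeup: library 1 gave 267 of the striatal projection neurons and 50 of the astrocytes, library 2 gave 786 and 257. A further 1769 nuclei stayed unnamed, and the 43 endothelial nuclei were too few to compare.

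Levels are in CPM, the summed UMIs of a gene in a class scaled by all UMIs of that class to the usual common total, and they are compared only within a gene, since levels of different genes would need a correction for length. Brackets after a level give its exact Poisson 95% interval, which covers counting error only and not the spread between mice. A gene was given a leading class when its CPM there was at least 1.5-fold that of the next class and above the level that free RNA could give, in a class that was also highest in each library. By this rule 12 of the 29 measured members (at least 50 UMIs) had a leading class, 41.4%, where 20.8% of all 15773 measured genes had one. Since the members were chosen with earlier results of these data known, such shares are descriptions only. For 9 of the 12 the interval of that ratio also excluded 1, which held for 14.3% of all measured genes. The median ratio of highest to next class was 1.41 over the members and 1.28 over all measured genes. Sema3b, with 41 UMIs in the compared classes, and Sema3g, with 4, were under the minimum and are not placed.

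**Figure D1:**
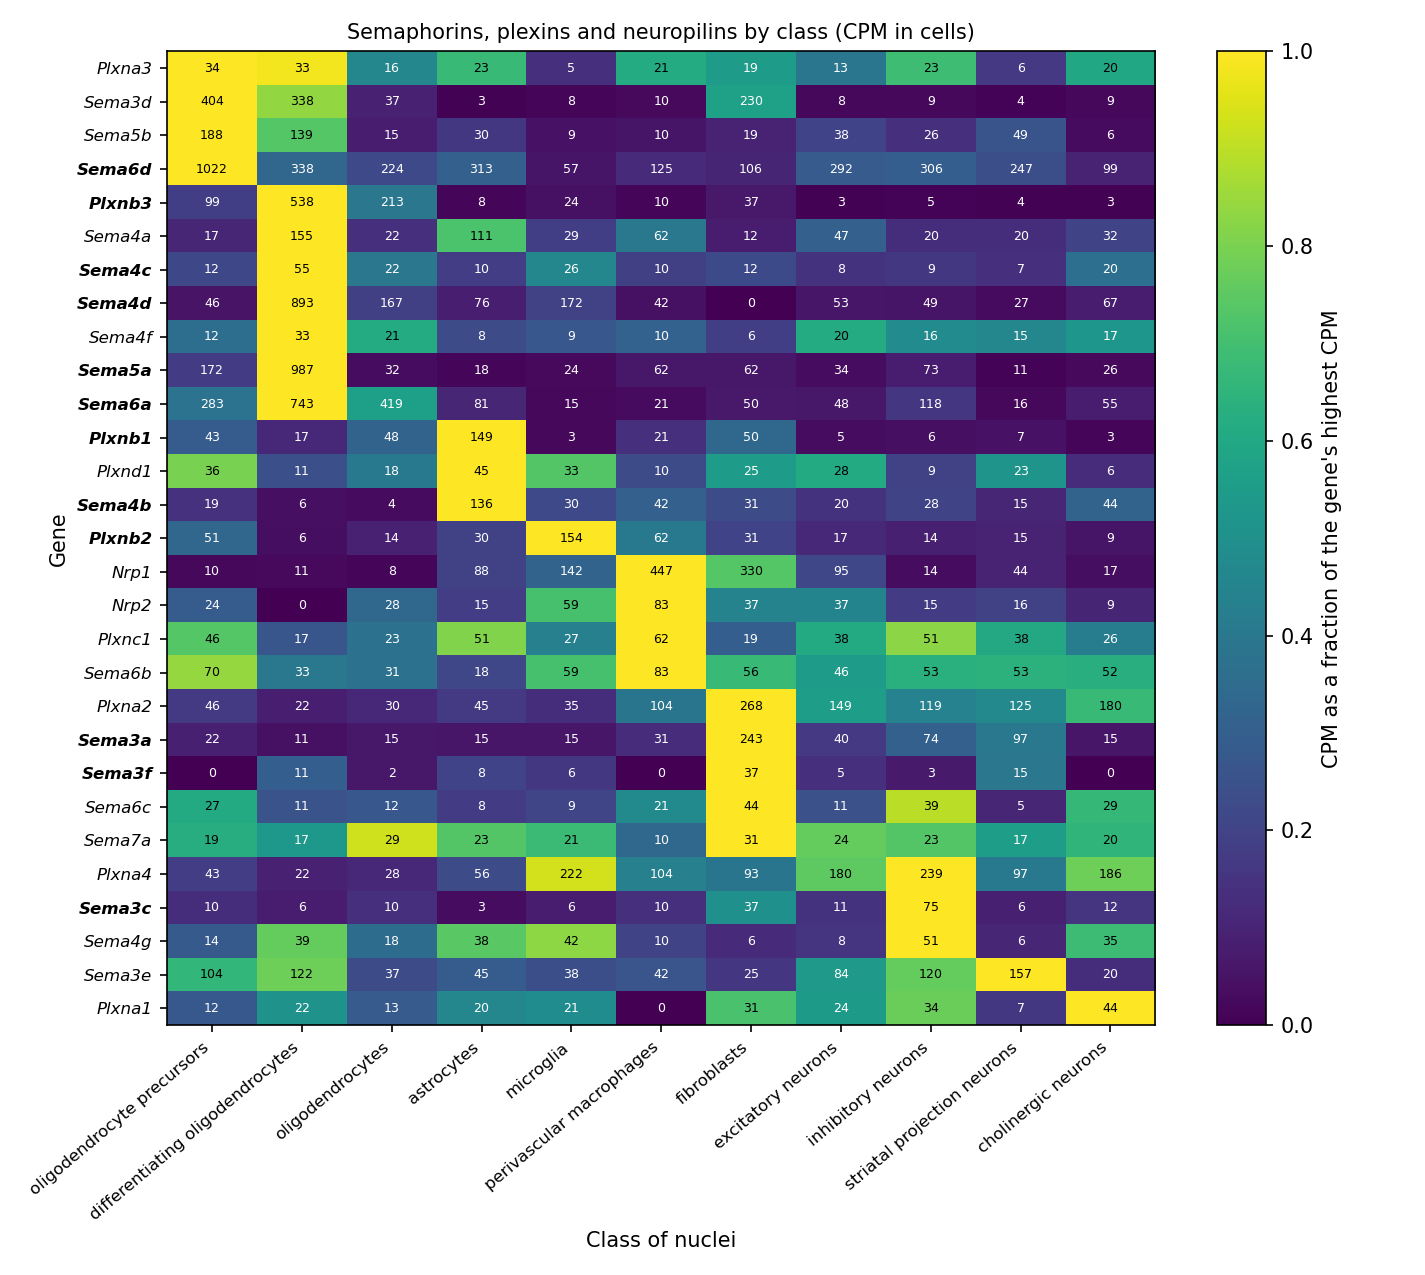
Levels of the 29 measured members in 11 classes of nuclei. Rows are genes, columns are classes, the number in each cell is the CPM over both libraries, and the color is that CPM as a fraction of the gene's highest. Bold names mark the 12 members with a leading class. Among the bold names, Plxnb3, Sema4c, Sema4d, Sema5a and Sema6a led in differentiating oligodendrocytes and Sema6d in precursors. Of all measured genes, 1.95% led in the first class and 1.29% in the second.

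The largest share fell in differentiating oligodendrocytes, the stage between precursor and myelinating cell: 5 of the 29 members led there (Plxnb3, Sema4c, Sema4d, Sema5a and Sema6a), where 1.95% of all measured genes did. The promoter windows below are shown to set genes of this line beside a gene of interneurons: Sema3d, at similar levels in precursors and differentiating cells, Sema5a, which led in differentiating cells, Plxnb3, which stayed higher into the mature stage, and Sema3c, which was highest in inhibitory neurons. Each is the 250 bases before a RefSeq start site, 5′ to 3′ on the plus strand of GRCm38.p6: chr5:12382916-12383165 for Sema3d, chr15:32244563-32244812 for Sema5a, chrX:73756853-73757102 for Plxnb3 and chr5:17574566-17574815 for Sema3c. Capitals mark ACAAT or its reverse complement ATTGT, 1 form of the core letters bound by SOX proteins, a family that includes the oligodendrocyte regulator Sox10. Other forms of the core were not searched, so a window with 0 matches may still hold them.
Sema3d: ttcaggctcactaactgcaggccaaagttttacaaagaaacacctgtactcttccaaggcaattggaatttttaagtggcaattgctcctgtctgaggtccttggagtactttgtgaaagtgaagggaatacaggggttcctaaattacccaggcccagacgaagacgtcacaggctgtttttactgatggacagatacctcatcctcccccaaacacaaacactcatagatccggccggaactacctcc
Sema5a: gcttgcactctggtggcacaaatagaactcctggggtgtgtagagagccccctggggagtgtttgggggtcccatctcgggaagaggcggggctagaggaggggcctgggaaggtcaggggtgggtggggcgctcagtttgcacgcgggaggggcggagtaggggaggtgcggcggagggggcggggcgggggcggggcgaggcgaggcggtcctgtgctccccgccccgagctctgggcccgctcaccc
Plxnb3: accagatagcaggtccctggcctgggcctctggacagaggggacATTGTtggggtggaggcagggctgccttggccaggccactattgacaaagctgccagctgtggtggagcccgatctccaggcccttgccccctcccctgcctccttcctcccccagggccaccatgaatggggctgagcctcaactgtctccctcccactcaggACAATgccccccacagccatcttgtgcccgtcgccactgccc
Sema3c: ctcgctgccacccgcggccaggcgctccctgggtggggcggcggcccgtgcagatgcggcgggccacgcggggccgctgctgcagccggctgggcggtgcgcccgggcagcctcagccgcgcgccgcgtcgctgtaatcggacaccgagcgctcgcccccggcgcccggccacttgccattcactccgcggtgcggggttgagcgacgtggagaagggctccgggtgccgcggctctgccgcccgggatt
The Plxnb3 window held 2 matches, and the other windows held 0. Unlike the others, the Plxnb3 window lies inside the annotated gene, whose outermost start is at 73756556. Of all 32851 windows of this length, 27.7% held at least 1 match, so a match is common and is a description, not a binding site. The dinucleotide CG occurred 39 times in the Sema3c window, 17 times in that of Sema5a, 4 times in that of Sema3d and 3 times in that of Plxnb3, against a median of 6 over all windows.

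Sema5a, a membrane semaphorin with thrombospondin repeats, had the steepest fall from differentiating cells to oligodendrocytes among the measured members. It stood at 172 CPM [134 to 216] in precursors, 987 CPM [847 to 1143] in differentiating cells and 32.0 CPM [26 to 39] in oligodendrocytes. In differentiating cells library 1 gave 1132 CPM (78 UMIs) and library 2 gave 897 CPM (100 UMIs). Both libraries were thus far above the precursors, the next class, where they gave 176 and 169 CPM, and the level in oligodendrocytes was not above free RNA. The ratio to precursors was 5.75 (exact 95% interval 4.35 to 7.69), and that to oligodendrocytes was 30.8 (23.8 to 40.1). With at least 1000 genes per nucleus the log2 ratio to the next class rose from 2.52 to 3.31.

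Sema4d, a membrane ligand of B plexins that was first described on immune cells, rose at the same stage from a low level. It was at 45.9 CPM (19 UMIs, not above free RNA) in precursors, 893 CPM [760 to 1042] in differentiating cells and 167 CPM [153 to 183] in oligodendrocytes. The ratio of differentiating cells to precursors was 19.4 (12.1 to 33.1), larger than that of Sema5a. Library 1 gave 1132 CPM and library 2 gave 745 CPM in differentiating cells, and the ratio of library 2 to library 1 was 0.658 (0.477 to 0.908). The libraries therefore differed in size, while differentiating cells were highest in both. Over both libraries microglia came next at 172 CPM, with a ratio of 5.18 (4.05 to 6.64), or 5.09 in library 1 and 5.57 in library 2. In library 2, however, oligodendrocytes (154 CPM) and not microglia (134 CPM) came next. Its log2 value of 2.37 became 1.75 with doublets kept and 3.08 with the free RNA level subtracted.

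Plxnb3, a B plexin, was far higher in this line than elsewhere. Its level was 99.1 CPM (41 UMIs) in precursors, 538 CPM [436 to 656] in differentiating cells and 213 CPM [196 to 231] in oligodendrocytes, against 37.3 CPM or less in the other 8 compared classes. In differentiating cells library 1 gave 638.5 CPM and library 2 gave 476 CPM. The ratio to oligodendrocytes was 2.53 (2.02 to 3.13), with 2.73 in library 1 and 2.49 in library 2.

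Sema6a, a membrane ligand of A plexins known for a part in oligodendrocyte development, was present through the whole line. It stood at 283 CPM [234 to 339] in precursors, 743 CPM [623 to 880] in differentiating cells and 419 CPM [396 to 443] in oligodendrocytes. Differentiating cells of library 1 gave 1001 CPM and those of library 2 gave 583 CPM. The ratio to oligodendrocytes was 1.77 (1.47 to 2.12), the smallest of the 12 leading members, and its lead was lost when called doublets were kept (log2 ratio 0.16), with at least 1000 genes per nucleus (0.47), as a mean over nuclei (0.50) and at a fold of 2. Within oligodendrocytes, 266 nuclei led by 1700047M11Rik, 9630013A20Rik and St18 gave 624 CPM of Sema6a, and the other 2797 gave 381 CPM.

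Sema4c, another class 4 membrane ligand, had only 10 UMIs in differentiating cells, 55.5 CPM [26.6 to 102]. The next class, microglia, was at 25.7 CPM, so the ratio of 2.16 had an interval that includes 1 (0.883 to 4.99), and the lead was lost in library 2 alone, with doublets kept (log2 ratio 0.36) and with at least 1000 genes per nucleus. Sema4a was also highest in differentiating cells, at 155 CPM [103 to 224], but astrocytes at 111 CPM came within 1.5-fold.

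Precursors were marked by Sema6d, a class 6 membrane ligand that binds Plxna1 and, with Trem2 and Tyrobp as partners, acts on myeloid cells. Precursors, where 1.29% of all measured genes led, held 1022 CPM [927 to 1124], with 1157 CPM in library 1 against 952 CPM in library 2. Differentiating cells followed at 338 CPM, 247 and 395 CPM in the libraries, with no overlap between the classes. The ratio was 3.02 (2.31 to 4.02), and the lead was lost with at least 1000 genes per nucleus (log2 ratio 0.38). The lead was smaller when members could shape the clusters (log2 ratio 0.62) and with unnamed clusters counted (0.78), against 1.60 here. Sema6d was also widespread, above the free RNA level in 9 of the 11 classes, with 292 CPM in excitatory and 306 CPM in inhibitory neurons.

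Sema3d, a secreted class 3 ligand, and Sema5b, a relative of Sema5a, were shared by precursors and differentiating cells. Sema3d was at 404 CPM [345 to 470] in precursors and 338 CPM [259 to 435] in differentiating cells, then at 37.2 CPM in oligodendrocytes and 2.53 CPM (1 UMI) in astrocytes. Sema5b was at 188 CPM, 139 CPM and 14.6 CPM along the line. For both genes the intervals of the first 2 stages overlap, and each library had precursors above differentiating cells. Oligodendrocyte levels were lower than those of precursors by ratios of 10.8 (8.45 to 13.9) for Sema3d and 12.9 (8.75 to 19.2) for Sema5b.

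Between precursors and oligodendrocytes, 12 of 29 measured members were higher in precursors with an interval of the ratio above 1 (15.3% of all measured genes), and Plxnb3, Sema4d and Sema6a were lower (9.24%). Of the 29, 10 were higher in differentiating cells than in oligodendrocytes with an interval of the ratio above 1, where 7.72% of all measured genes were, and Nrp2 was the 1 lower member (0 against 81 UMIs, the latter not above free RNA), where 6.24% were. Against precursors 6 were higher (5.88% of all genes) and Plxnb2 and Sema6d were lower (7.1% of all genes). Neighboring stages thus differed in both directions: Sema6d was lower at the differentiating stage, whereas Sema4d, Sema5a and Plxnb3 were higher. The 109 differentiating nuclei had a median of 1628 UMIs, precursors 1128 and oligodendrocytes 811; the part of depth in these differences was not tested.

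**Figure D2:**
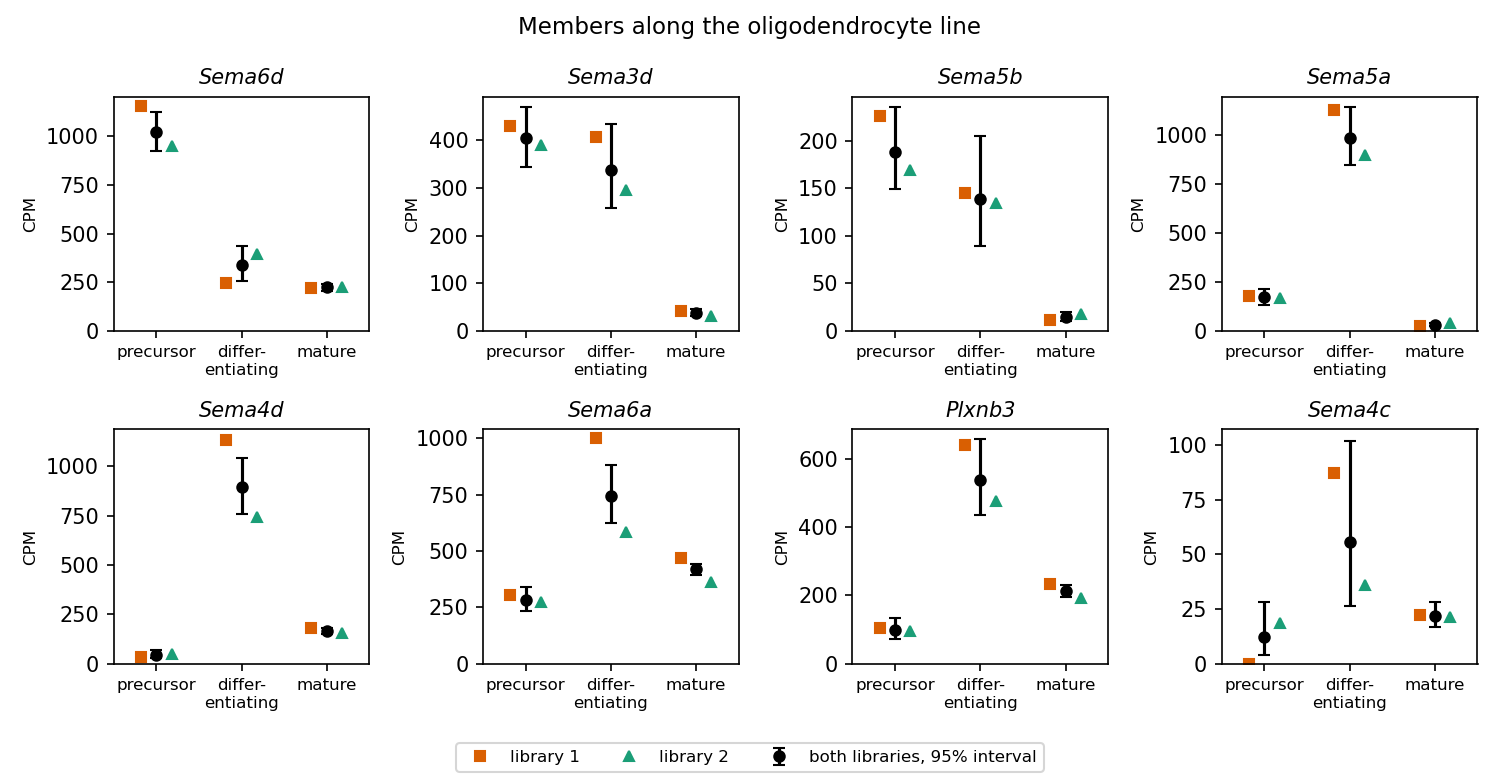
CPM of 8 members in oligodendrocyte precursors, differentiating oligodendrocytes and mature oligodendrocytes. Black points are both libraries with exact Poisson 95% intervals, orange squares are library 1 and green triangles are library 2, each panel with its own axis from 0. Sema6d is highest in precursors at 1022 CPM, while Sema5a, Sema4d, Sema6a and Plxnb3 peak at the differentiating stage, at 987, 893, 743 and 538 CPM.

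Astrocytes led for 2 members, Plxnb1 and Sema4b, where 2.66% of all measured genes led there. Plxnb1, the receptor of Sema4d, was at 149 CPM [113 to 192] in astrocytes, from 14 UMIs in library 1 (231 CPM) and 45 UMIs in library 2 (134 CPM). Fibroblasts were next at 49.8 CPM and oligodendrocytes at 47.7 CPM, while excitatory and inhibitory neurons were at 4.94 and 5.97 CPM. The ratio to fibroblasts was 2.99 (1.42 to 7.26), and its log2 value of 1.58 became 0.65 with at least 1000 genes per nucleus.

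Sema4b, a class 4 membrane ligand, was at 136 CPM [102.5 to 178] in astrocytes. Library 1 gave 297 CPM from 18 UMIs and library 2 gave 107 CPM from 36 UMIs, so the libraries differed by more than counting error (ratio 0.362, 0.200 to 0.677). Cholinergic neurons were next at 43.6 CPM, with a ratio of 3.13 (1.74 to 5.97). Its log2 value of 1.65 was 2.72 in library 1 alone, there to microglia at 45.1 CPM, and at its lowest, 0.84, with unnamed clusters counted. Both astrocyte genes were higher than in precursors, by 3.43 for Plxnb1 (1.99 to 6.17) and 7.06 for Sema4b (3.34 to 17.2).

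Microglia, where 4.08% of all measured genes led, led for Plxnb2, a B plexin that binds class 4 semaphorins, at 154 CPM [126 to 187]. Library 1 gave 181 CPM and library 2 gave 134 CPM. Perivascular macrophages were next at 62.4 CPM, from 6 UMIs, and the ratio of 2.47 (1.10 to 6.89) had a lower bound close to 1. The lead was lost with at least 1000 genes per nucleus (log2 ratio 0.09). The log2 ratio was 2.09 in library 1 alone, there to precursors at 42.3 CPM, and 0.72 in library 2 alone. Plxna4, the partner of Nrp1 in many class 3 receptors, was nearly as high in microglia (222 CPM [188 to 261]) as in inhibitory neurons (239 CPM).

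Among the compared classes the neuropilins had their highest CPM in perivascular macrophages, a class led by Cd74, H2-Ab1 and H2-Aa. Nrp1, the co-receptor of Sema3a and of vascular endothelial growth factor, was at 447 CPM [324 to 602] there and at 330 CPM [247 to 431] in fibroblasts. Library 1 gave 375.5 and 270.4 CPM, and library 2 gave 488 and 358 CPM, so the order was the same in both and the ratio of 1.36 (0.885 to 2.07) did not reach the rule. The leading class of Nrp1 depended on the setting: fibroblasts with doublets kept, and perivascular macrophages as a mean over nuclei. In library 1 alone Nrp1 led in fibroblasts, but only because the 18 perivascular macrophage nuclei there were too few to be compared. Microglia held less Nrp1 than perivascular macrophages, by a ratio of 0.318 (0.219 to 0.467). Nrp2 reached only 8 UMIs in perivascular macrophages, 83.2 CPM [35.9 to 164], with microglia at 59.0 CPM. Its ratio of 1.41 had an interval that includes 1 (0.570 to 3.06), so its highest class is uncertain.

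Fibroblasts, the cells of the brain's coverings and larger vessels, led for the secreted ligands Sema3a and Sema3f, where 2.63% of all measured genes led there. Sema3a, the founding repellent ligand of the Nrp1 and Plxna4 receptor, was at 243 CPM [173 to 332]: library 1 gave 174 CPM from 9 UMIs and library 2 gave 275 CPM from 30 UMIs. Striatal projection neurons were next at 97.0 CPM and inhibitory neurons at 74.1 CPM, and the ratio was 2.502 (1.75 to 3.497). Sema3f, which acts through Nrp2, was at 37.3 CPM in fibroblasts from 6 UMIs, with a ratio of 2.52 whose interval includes 1 (0.881 to 5.89), and the lead was lost in library 1 alone and as a mean over nuclei (log2 ratio 0.54). With at least 1000 genes per nucleus no fibroblast class was named, so neither fibroblast lead could be given; Sema3f then led in striatal projection neurons.

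Sema3d and Plxna2 were also high in fibroblasts, and there the libraries disagreed. Sema3d was at 96.6 CPM (5 UMIs) in library 1 and 294 CPM (32 UMIs) in library 2. Plxna2, a class A plexin, was at 425 CPM (22 UMIs) and 193 CPM (21 UMIs). The genes differed in opposite directions between libraries, and Plxna2 was highest in fibroblasts in library 1 but in cholinergic neurons in library 2.

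Among neurons, inhibitory cells had the higher level of 15 of the 29 measured members when set beside excitatory cells, with an interval of the ratio above 1, and the lower level of 9; over all measured genes 38.3% were higher and 19.5% lower. Among the members higher in inhibitory cells, the widest gaps were in the secreted ligand Sema3c and the membrane ligands Sema4g and Sema6c. Sema3c was at 74.7 CPM against 11.01 CPM (ratio 6.78, 5.96 to 7.73), Sema4g at 50.9 against 7.62 CPM (6.68, 5.71 to 7.82) and Sema6c at 39.0 against 10.8 CPM (3.62, 3.104 to 4.22). The neuropilins went the other way: Nrp1 was at 14.5 CPM in inhibitory and 94.6 CPM in excitatory neurons, and Nrp2 at 14.6 and 37.4 CPM.

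Sema3c, another class 3 ligand, led in inhibitory neurons, where 0.9% of all measured genes led. Library 1 gave 69.7 CPM and library 2 gave 79.2 CPM, close to each other. Fibroblasts were next with 6 UMIs at 37.3 CPM, so the interval of the ratio of 2.00 includes 1 (0.913 to 5.47); the lead was lost when doublets were kept, at the finer clustering, when members could shape the clusters and at a fold of 2. Endothelial nuclei, not compared, were at 76.1 CPM from 13 UMIs.

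Neurons were next divided into subclasses, of which 12 were named and compared: 1554 layer 2/3, 525 layer 5 extratelencephalic, 219 near-projecting, 1247 layer 6 corticothalamic, 323 layer 6b and 181 claustrum-like neurons, 782 parvalbumin, 833 somatostatin, 406 VIP and 306 LAMP5 interneurons, and 651 direct-pathway and 402 indirect-pathway striatal neurons. Another 3821 neurons, among them a cluster of 1365 led by Rorb, had no named subclass and were not compared. Highest, next and lowest below refer to the 12 named subclasses. By the same rule 5 of 29 members (17.2%) had a leading subclass, where 9.65% of all 14234 measured genes had one. In all 5 the interval of the ratio excluded 1, which held for 7.25% of all measured genes. The median ratio of highest to next subclass was 1.26 over the members and 1.13 over all measured genes.

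**Figure D3:**
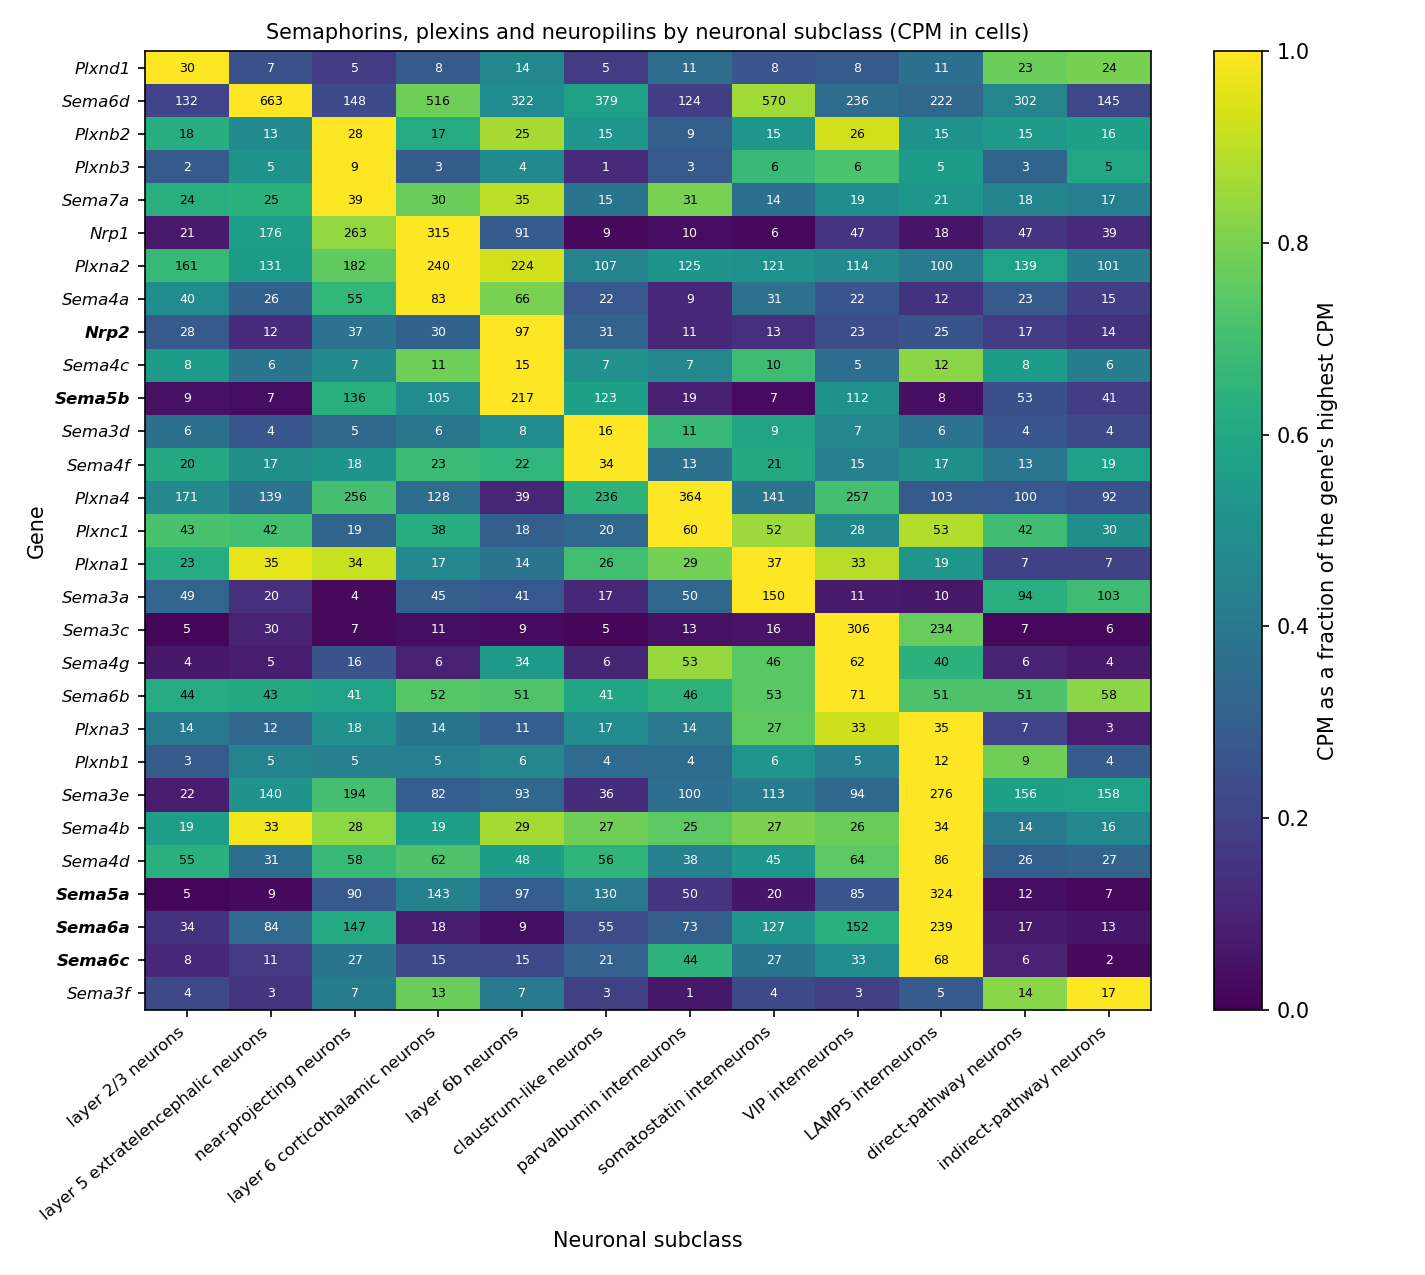
Levels of the 29 measured members in 12 neuronal subclasses. Rows are genes, columns are subclasses, the number in each cell is the CPM over both libraries and the color is that CPM as a fraction of the gene's highest. Bold names mark the 5 members with a leading subclass, 3 of them in LAMP5 interneurons (Sema5a at 324 CPM, Sema6a at 239 CPM, Sema6c at 68.0 CPM) and 2 in layer 6b neurons.

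LAMP5 interneurons, which include the neurogliaform cells of superficial layers, led for Sema5a, Sema6a and Sema6c, where 1.38% of all measured genes led there. Sema5a was at 324 CPM [286 to 365], or 308 and 341 CPM by library. Layer 6 corticothalamic neurons were next at 143 CPM and the ratio was 2.27 (1.96 to 2.62), while layer 2/3 neurons were at 5.12 CPM. The lead of Sema5a held in each library alone.

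Sema6a was at 239 CPM [207 to 275] in LAMP5 interneurons, with 248 and 230 CPM in the libraries, and at 152 CPM in VIP interneurons. The ratio was 1.57 (1.26 to 1.97), and it missed the rule in either library taken alone, as a mean over nuclei (log2 ratio 0.54) and with unnamed clusters counted (0.32). Sema6c, a class 6 ligand with few counts, was at 68.0 CPM (28 UMIs in each library), with parvalbumin interneurons next at 44.0 CPM. Its ratio of 1.55 (1.11 to 2.14) missed the rule in library 1 alone, at 1000 genes per nucleus, at the finer clustering and when members could shape the clusters.

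Layer 6b neurons, the remnant of the subplate, led for Sema5b and Nrp2, where 0.752% of all measured genes led there. Sema5b was at 217 CPM [194 to 243], or 222 and 210.3 CPM by library, and near-projecting neurons were next at 136 CPM. The ratio was 1.60 (1.24 to 2.08), and it missed the rule in library 2 alone and as a mean over nuclei. Claustrum-like (123 CPM), VIP (112 CPM) and layer 6 corticothalamic (105 CPM) neurons followed, whereas layer 5 extratelencephalic neurons were at 6.83 CPM.

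Nrp2, the receptor subunit for Sema3f and Sema3c, was at 97.4 CPM [81.9 to 115] in layer 6b neurons, or 83.7 and 118 CPM by library. Near-projecting neurons were next at 37.1 CPM, and the ratio was 2.63 (1.65 to 4.38). An unnamed excitatory cluster of 403 nuclei, led by Fam19a2 and Unc13c, held more Nrp2 than layer 6b neurons did, at 150 CPM [130 to 172]. Once unnamed clusters were counted, the lead passed to that cluster (log2 ratio -0.62).

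Nrp1 was highest in deep-layer neurons, without a single leading subclass. It was at 315 CPM [299 to 331] in layer 6 corticothalamic neurons, 263 CPM [223 to 309] in near-projecting neurons, 176 CPM [162 to 190] in layer 5 extratelencephalic neurons and 91.1 CPM in layer 6b neurons. Layer 2/3 neurons were at 21.1 CPM and somatostatin interneurons at 6.35 CPM, so the range from highest to lowest was wide. The libraries gave 309 and 321 CPM in corticothalamic neurons, nearly the same value.

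Secreted class 3 ligands differed widely between interneuron groups. Sema3c was at 306 CPM [272 to 343] in VIP and 234 CPM [202 to 270] in LAMP5 interneurons, against 30.5 CPM or less in the other 10 subclasses. Within VIP interneurons, 87 nuclei led by Cadps2, Frem1 and Cnr1 gave 612 CPM of Sema3c and 319 nuclei led by Vip, Tac2 and Crh gave 166 CPM. Sema3a was highest in somatostatin interneurons at 149.7 CPM [135 to 165], with indirect-pathway neurons at 103 CPM and VIP and LAMP5 interneurons at 10.5 and 9.71 CPM. The ratio to indirect-pathway neurons was 1.45 (1.18 to 1.79), just under the threshold, as that of Sema3d in claustrum-like neurons was at 1.49; the lowest ratio among the 5 leaders was that of Sema6c.

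Sema3e, the ligand that binds Plxnd1 without a neuropilin, was at 276 CPM in LAMP5 interneurons, 194 CPM in near-projecting neurons and 158 and 156 CPM in indirect-pathway and direct-pathway neurons. Within direct-pathway neurons it ranged to 289 CPM in 122 nuclei led by Sox5, Alk and Car10. Its receptor Plxnd1 was low across named subclasses, highest in layer 2/3 neurons at 29.9 CPM, and stood at 54.2 CPM in an unnamed excitatory cluster of 1365 nuclei led by Rorb. In library 1 alone Plxnd1 was highest in indirect-pathway neurons instead, at 34.8 CPM. Layer 2/3 neurons were the lowest named subclass for Sema3e, at 22.1 CPM.

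Among the A plexins, Plxna4 was highest in parvalbumin interneurons at 364 CPM [342 to 387], with 375 and 354 CPM in the libraries, and VIP interneurons were next at 257 CPM. The ratio of 1.41 (1.23 to 1.63) was under the threshold. Plxna2 varied less: it was at 240.4 CPM in layer 6 corticothalamic and 224 CPM in layer 6b neurons and lowest, at 99.5 CPM, in LAMP5 interneurons. Plxna1 and Plxna3 were low, at most 36.6 CPM in somatostatin interneurons for Plxna1 and 35.2 CPM in LAMP5 interneurons for Plxna3.

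Sema6d, which led in precursors among the classes, was highest among neurons in layer 5 extratelencephalic cells at 663 CPM [636 to 690.0], followed by somatostatin interneurons at 570 CPM and corticothalamic neurons at 516 CPM. Layer 2/3 neurons were at 132 CPM and parvalbumin interneurons at 124 CPM. Sema4a was highest in layer 6, with 82.7 CPM in corticothalamic and 65.9 CPM in layer 6b neurons. The B plexins Plxnb1 and Plxnb3 were not above the free RNA level in any named neuronal subclass. That level was set from the neuronal subclasses alone, so a low level shared by all neurons could not exceed it. Over the 11 classes, with a level set from all of them, Plxnb1 was above it in 7 and Plxnb3 in 4.

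The remaining members had no leading class or subclass. Plxnc1, the receptor of Sema7a, lay between 16.6 and 62.4 CPM over the classes, and Sema7a, a ligand anchored to the membrane by a lipid, between 10.4 and 31.1 CPM. Sema6b lay between 17.7 and 83.2 CPM and Sema4f between 6.22 and 33.3 CPM. In all 4 the highest class was not above the free RNA level, so their order is not read.

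**Figure D4:**
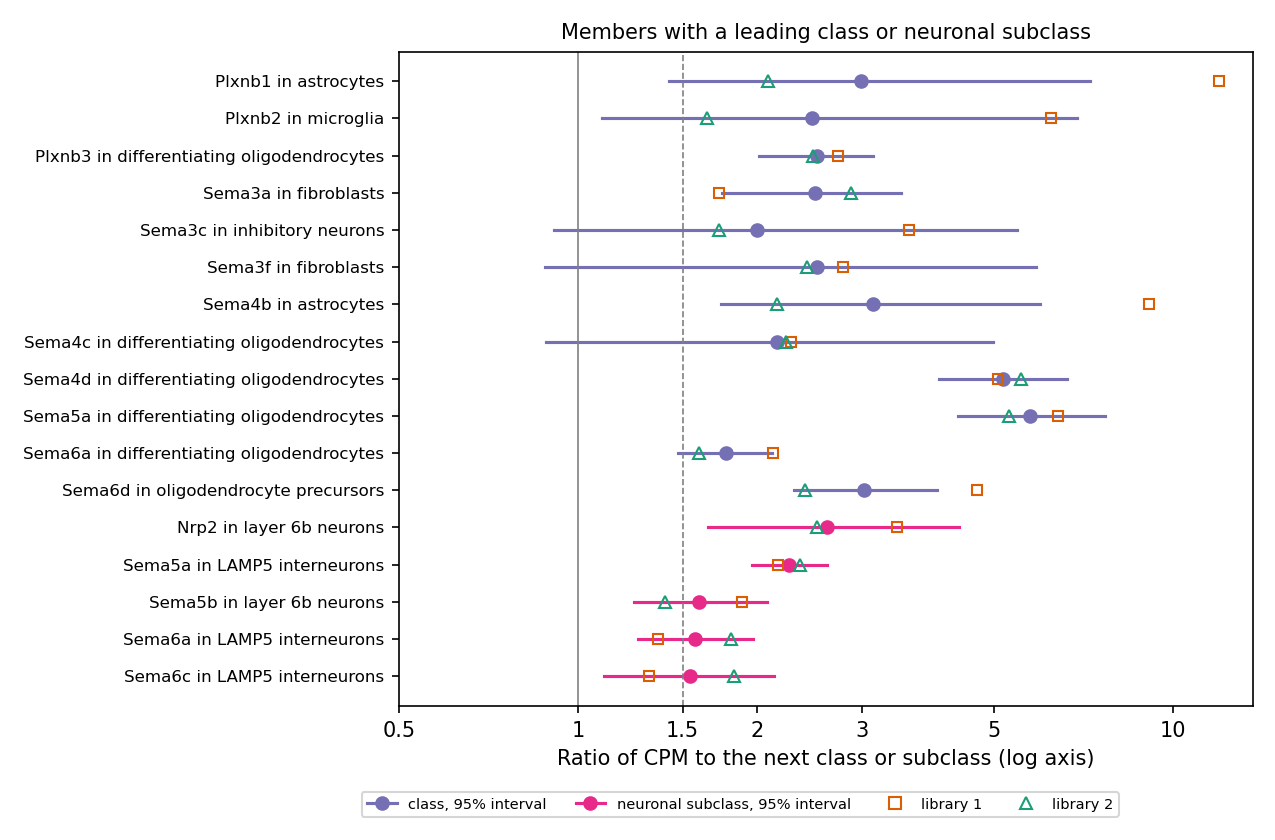
Ratio of the CPM in the leading class or neuronal subclass to the next, on a log axis, for the 12 members with a leading class (violet) and the 5 with a leading subclass (pink). Lines are exact 95% intervals, orange squares and green triangles the ratios within library 1 and library 2, the solid vertical line marks equality and the dashed line the threshold of 1.5. Among the points for both libraries Sema5a at 5.75 and Sema4d at 5.18 lie farthest right, and the intervals of Sema3c, Sema3f and Sema4c cross equality.

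The gene lists below were chosen with earlier results of these data known, so their shares are descriptions only. Genes that carry semaphorin signals onward had a leading class in 10 of 28 cases (35.7%), against the same 20.8% of all measured genes. Those that led in differentiating oligodendrocytes included the kinase Fyn at 2839 CPM (12.1-fold the next class), the small GTPase Rnd2 at 177 CPM (5.85-fold) and the redox enzyme Mical3 at 776 CPM (2.97-fold). Dpysl4, a member of the CRMP family that relays Sema3a signals, also led there (139 CPM, 2.58-fold). The kinases Pak1 (695 CPM, 5.00-fold) and Cdk5 (347 CPM, 1.63-fold) led in oligodendrocytes, Farp1 in astrocytes, Rac1 in microglia, Dpysl3 in precursors and Dpysl5 in cholinergic neurons. In neuronal subclasses 3 of 27 had a lead (11.1%, near the 9.65% of all measured genes): Dpysl3 in somatostatin, Rnd2 in parvalbumin and Rapgef4 in LAMP5 interneurons.

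Of the co-receptors and other partners, 9 of 16 measured genes had a leading class (56.3%, against 20.8% of all measured genes) and 0 of 13 a leading subclass (against 9.65%). Trem2 and Tyrobp, partners of Plxna1 in myeloid cells, led in microglia at 1249 and 698 CPM, while Plxna1 itself was at 21.2 CPM there (14 UMIs), no higher than free RNA could give. Cntn2 and Pde4b led in oligodendrocytes, Chl1 in precursors, L1cam in cholinergic neurons, Vegfa in astrocytes, Itga1 in fibroblasts and Gipc1 in differentiating oligodendrocytes. The list holds Flt1, which was also a marker of endothelial cells.

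Finally, the libraries were set side by side for each member and class with at least 20 UMIs. Of 158 such pairs, 15 (9.49%) differed by at least 1.5-fold with an interval of the ratio that excludes 1, where 11.8% of 77838 pairs over all genes did, a share somewhat above that of the members. Pairs in which library 2 was lower included Sema4d in microglia (222 and 134 CPM), Nrp2 in striatal projection neurons (27.7 and 12.3 CPM) and the values of Sema6a, Sema4d, Sema4b and Plxna2 already given. Pairs in which it was higher lay in classes where the gene was not at its highest, such as Plxna4 in oligodendrocytes (17.6 and 38.7 CPM), Plxnb1 in inhibitory neurons (3.36 and 8.32 CPM) and Sema5a in oligodendrocytes (24.4 and 40.1 CPM). Over both libraries, Nrp2 in striatal projection neurons and Sema5a in oligodendrocytes were not above the free RNA level. These are differences between 2 libraries of unknown group, and treatment, batch, dissection and free RNA cannot be told apart in them.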

How the data were processed

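Single-nucleus RNA was captured with 10x 3' chemistry from the prefrontal cortex, per the labels' protocols. The deposited values are UMI counts per gene and barcode; Cell Ranger 1.3.0, Seurat 3.1.4 and mm10 are named per the submitters' processing notes, while the software version in the matrix is 3.1.0 per the file headers. How free RNA was treated before deposit is not given in the sources used here.

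A minimum of 500 genes left 19551 barcodes, and 1549 doublets called by Scrublet in Scanpy 1.11.5 within each library were removed (10.0% and 6.19%). Nuclei were clustered with 3000 variable genes, 50 components, 20 neighbors and Leiden resolution 1 (0.6 within neurons), leaving the members out of the variable genes. Clusters were named from marker lists, with at least 3 detected markers; the scoring of names was settled after the data were seen. Depth behind a class is its summed UMIs, from 96141 (perivascular macrophages) to 36609613 (excitatory neurons).

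Levels are CPM of summed UMIs with exact Poisson 95% intervals; ratios have exact conditional 95% intervals. PCR copies are removed by UMIs, and intervals cover counting error only. The level that free RNA could give came from Slc17a7 and a set of myelin genes in classes that should lack them, times the lowest upper bound of the gene over classes with 200000 UMIs. Every member is accounted for, and those with a leading class or subclass are given in full. The members and lists were chosen with earlier results of these data known. Calls were tested on simulated data. Alternatives were a minimum of 1000 genes, doublets kept, members allowed in clustering, resolution 2, a mean over nuclei, free RNA subtracted, a fold of 2, no UMI minimum, each library alone, and, chosen after seeing the data, an interval above 1 and unnamed clusters counted. In library 1 alone, perivascular macrophages (18 nuclei) and cholinergic neurons (19 nuclei) were too few to be compared. Sequences and positions are from RefSeq on GRCm38.p6, the build called mm10; 26 of the 31 members had a promoter window. Tools were Python 3.11.15, NumPy 2.4.6, SciPy 1.17.1 and pandas 2.3.3.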

Additional observations from a re-analysis of the deposited data

How the results depend on the processing

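The number of members with a leading class stayed between 9 and 15 over all alternatives, around 12, but the genes changed: with at least 1000 genes per nucleus 11 members led and 6 of the original 12 were among them, with doublets kept 13 and 9, and with library 1 or library 2 alone 15 and 11, with 11 of the 12 in each. Requiring the interval of the ratio to exclude 1 left 9. The share of all measured genes with a leading class, 20.8%, also moved with the setting. It was 22.7% with doublets kept, 25.9% in library 1 alone and 23.5% in library 2 alone. That share was lower with at least 1000 genes per nucleus, and 14.3% when the interval had to exclude 1. The count of 15 in library 1 alone thus came with a higher share of all genes. The number with a leading subclass, 5, became 11 with the free RNA level subtracted and 2 with a fold of 2; the other alternatives gave 4 to 7. The share of all genes with a leading subclass moved with that number, from 9.65% to 18.1% and 4.2%. The ratio of Nrp2 in layer 6b neurons to the next subclass turned to -0.62 on the log2 scale with unnamed clusters counted, an alternative chosen after seeing the data. Over the single genes, 132 alternative values stayed within counting error, 18 moved and 1 reversed. The number of pairs that differed between libraries was 14 with thinned counts, 19 with doublets kept and 16 at 1000 genes, around 15. The fibroblast ratios of Sema3a and Sema3f had no value at 1000 genes, where Sema3f led in striatal projection neurons. No paired analysis was possible because no file ties a library to a group, and each group is 1 library. Depth limits the small classes: fibroblasts, differentiating oligodendrocytes, perivascular macrophages and cholinergic neurons had 56 to 112 nuclei.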

Other observations

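Several clusters that the markers left unnamed carried members at levels outside the comparisons above. A cluster of 237 nuclei led by Ntng1, Fyb2 and Slc38a3 held 402 CPM of Sema6a [359.6 to 447] from 334 UMIs, above every neuronal subclass, and 135 CPM of Nrp2 [111 to 162]. A cluster of 945 nuclei led by Gpr149, Foxp2 and Pbx3 held 595 CPM of Sema6d [564 to 627] and 118 CPM of Sema5b. A cluster of 143 nuclei led by Igfbpl1 and Top2a, genes of neuroblasts and of dividing cells, held 298 CPM of Plxna4 [212 to 408] from 39 UMIs and 99.4 CPM of Plxnb2. Among inhibitory neurons, 73 nuclei led by Pde3a and Il1rapl2 held 116 CPM of Plxna1 [74 to 172] from 24 UMIs, where no named subclass exceeded 36.6 CPM.

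The 43 endothelial nuclei, too few to compare, held 76.1 CPM of Sema7a [40.5 to 130] from 13 UMIs and 99.5 CPM of Sema6b from 17 UMIs. Sema3g, with 4 UMIs in the compared classes, had 3 UMIs in them, all in library 2.

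A group of class 3 genes lies on mouse chromosome 5 (GRCm38.p6) without sharing a highest class. Sema3d, Sema3a and Sema3e lie between 12383161 and 14256689, and Sema3c lies farther on, from 17574816 to 17730268. In this order they were highest in precursors, fibroblasts, striatal projection neurons and inhibitory neurons. Only Sema3a and Sema3c met the rule for a leading class.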
